A study of Mus musculus with 29 samples.

Results

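The last arm of cholesterol synthesis, the steps from squalene epoxide through lanosterol to cholesterol, is represented here by 9 genes: Lss, Cyp51, Tm7sf2, Msmo1, Nsdhl, Hsd17b7, Ebp, Sc5d and Dhcr7. They were taken by name, as the rows of the count table whose Ensembl identifier belongs to one of these mouse symbols. Each gene had 1 row, so the set is 9 of the 54532 gene rows in the table. All 9 passed the filter on low counts, which left 15603 genes to test.

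The livers came from obese male mice. In the K556R mice, Cre recombination at 8 weeks of age switched hepatocytes to Prox1 K556R. This form of the homeobox factor Prox1 cannot be SUMOylated at that lysine. Mice of both genotypes then ate a diet with 45% fat and 20% fructose for 18 weeks. Livers were taken at ZT 15 to 17 (hours after lights on), either fasted or after refeeding. Poly-A RNA of 29 livers was sequenced: 8 from refed K556R mice (4 in batch 1, 4 in batch 2), 6 from refed wild-type (WT) mice (3 and 3), 7 from fasted K556R mice (4 and 3) and 8 from fasted WT mice (4 and 4). The design text names a hepatocyte-specific model, so the other cells of the liver keep wild-type Prox1. The labels call the WT libraries controls and do not say whether those mice carried the knock-in allele or received Cre, nor how Cre was delivered. The labels state neither the length of fasting and refeeding nor what a batch stands for.

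Cholesterol is built in the endoplasmic reticulum from acetyl-CoA. Lanosterol is the first sterol ring of the path, and the enzymes after it remove methyl groups, shift and reduce double bonds and so turn lanosterol into cholesterol. In liver these genes are known targets of SREBP2, a membrane-bound transcription factor that is cut free when sterols are scarce, and refeeding and insulin raise sterol synthesis as well. SREBP factors bind DNA at sterol regulatory elements, usually beside sites for the factors NF-Y and Sp1.

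The libraries held 14385218 to 27278251 gene counts, with 19065976 to 27278251 in batch 1 and 14385218 to 23526145 in batch 2. Over these libraries the 9 genes had between 128 counts (Nsdhl) and 17241 counts (Sc5d) each. Batch carried 97.2% of the first principal component, which held 37.9% of the variance, and so every test adjusts for batch and values are also given batch by batch. Prox1, the targeted gene, stood at 149.7 ± 25.5 CPM in refed K556R livers (SD, n = 8) and 164 ± 22.7 in refed WT livers (n = 6), and at 186 ± 12.3 in fasted K556R livers (n = 7) and 174 ± 13.0 in fasted WT livers (n = 8). CPM values are counts scaled to a common library size, with the TMM factors of edgeR. Counts over the whole gene do not tell the mutant from the wild-type message. All 6 hepatocyte markers listed (Alb, Ttr, Apoa1, Serpina1a, Fgb and Hnf4a) were present in every group. The labels do not tie each replicate to its own mouse, and the p-values therefore reflect only how these libraries vary.

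The promoters of 4 of the genes are shown because they differ in the letters of a sterol regulatory element, and because Lss, Cyp51 and Sc5d passed the refeeding test in WT livers while Ebp did not. Each window holds 250 bases before and 50 after the annotated start (RefSeq, GRCm38.p6), written 5′ to 3′ on the gene's strand. Capitals mark CCAAT, the core of an NF-Y site, and TCACNNCA, a loose form of the sterol regulatory element, searched on both strands.
Lss, chr10:76531355-76531654, plus strand: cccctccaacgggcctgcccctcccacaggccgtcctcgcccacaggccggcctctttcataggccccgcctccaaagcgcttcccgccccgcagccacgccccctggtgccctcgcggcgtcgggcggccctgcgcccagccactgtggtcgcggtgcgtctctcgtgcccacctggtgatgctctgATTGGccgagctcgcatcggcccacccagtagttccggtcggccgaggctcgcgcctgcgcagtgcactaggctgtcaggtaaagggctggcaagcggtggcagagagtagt
Cyp51, chr5:4104648-4104947, minus strand: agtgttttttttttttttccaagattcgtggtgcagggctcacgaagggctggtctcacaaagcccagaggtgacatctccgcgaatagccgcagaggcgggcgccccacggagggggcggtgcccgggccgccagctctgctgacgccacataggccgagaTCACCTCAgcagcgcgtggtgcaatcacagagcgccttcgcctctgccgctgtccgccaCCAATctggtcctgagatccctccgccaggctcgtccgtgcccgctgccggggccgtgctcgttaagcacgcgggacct
Sc5d, chr9:42264251-42264550, minus strand: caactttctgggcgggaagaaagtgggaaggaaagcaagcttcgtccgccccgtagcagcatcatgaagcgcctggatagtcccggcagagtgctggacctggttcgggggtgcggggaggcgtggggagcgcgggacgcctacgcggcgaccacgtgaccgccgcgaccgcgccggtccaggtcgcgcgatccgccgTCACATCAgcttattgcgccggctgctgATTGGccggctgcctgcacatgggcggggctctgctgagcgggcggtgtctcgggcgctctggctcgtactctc
Ebp, chrX:8193463-8193762, minus strand: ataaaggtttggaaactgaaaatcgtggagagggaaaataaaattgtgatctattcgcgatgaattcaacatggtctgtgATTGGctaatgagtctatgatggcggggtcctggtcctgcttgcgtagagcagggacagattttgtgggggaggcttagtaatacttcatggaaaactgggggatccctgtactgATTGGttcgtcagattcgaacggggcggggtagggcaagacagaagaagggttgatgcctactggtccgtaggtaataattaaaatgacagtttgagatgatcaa

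The letters TCACNNCA stood at -88 of the start in Cyp51, as TCACCTCA, and at -52 in Sc5d, as TCACATCA. They were in a window of 6 of the 9 genes (Cyp51, Msmo1, Nsdhl, Hsd17b7, Sc5d and Dhcr7) and in 7 of their 11 annotated windows, against 13.8% of 32851 mouse promoter windows of the same length. CCAAT was in a window of all 9 genes and in 9 of the 11 windows, against 37.4% of all windows. GGGCGG, the core of an Sp1 site, was in 10 of the 11 windows, against 35.7%. The pair of CCAAT and TCACNNCA in the same window was found for 6 genes and in 6 of the 11 windows, against 5.19% of all windows. A stricter form of the element, of 10 bases with TCACNNCA within it, was in none of the 11 member windows and in 0.234% of all windows. In the Msmo1 window one TCACNNCA overlaps a CCAAT by shared letters. Of the genes with TCACNNCA, Cyp51, Msmo1, Sc5d and Dhcr7 were called higher with refeeding in K556R or WT livers, and Nsdhl and Hsd17b7 in neither. Of the genes without it, Lss and Tm7sf2 were called and Ebp was not. A link between these letters and refeeding was not tested. A match describes the letters in a window and is not a measured site.

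How strongly is each step expressed? Per kilobase of annotated exon, the mean level over the 29 libraries was highest for Sc5d, the desaturase of the sterol ring, at 75.1 ± 30.4 CPM per kilobase (SD), and for Ebp, the sterol isomerase, at 62.9 ± 9.69. Tm7sf2, a sterol reductase, had 16.5 ± 5.22 and Cyp51, the lanosterol demethylase, 15.6 ± 9.34. Nsdhl and Hsd17b7, the dehydrogenase and ketoreductase that complete the removal of methyl groups, had 13.3 ± 6.77 and 11.2 ± 3.29. Msmo1, the methyl sterol oxidase that begins that removal, had 10.2 ± 5.79, Dhcr7, the reductase of the last step, 9.58 ± 3.59, and Lss, the cyclase that makes lanosterol, 3.62 ± 1.56. In this order the gap from Sc5d to Ebp was smaller than the larger of their SDs, as were the gaps between neighbours from Tm7sf2 to Dhcr7. The gaps from Ebp to Tm7sf2 and from Dhcr7 to Lss were larger than the SDs on either side. These SDs span all groups and both batches, and so include any change with feeding. Differences between the genes were not tested. Lss has 10787 annotated exon bases, the most of the 9, and in plain CPM the lowest place passed to Nsdhl.

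The top of the order depended on feeding. In refed livers Sc5d stood first, at 108 ± 19.7 CPM per kilobase in K556R (n = 8) and 90.3 ± 29.2 in WT (n = 6), with Ebp at 63.7 ± 9.84 and 70.2 ± 10.3. In fasted livers Ebp stood first, at 58.8 ± 10 in K556R (n = 7) and 60.1 ± 6.68 in WT (n = 8), with Sc5d at 53.6 ± 9.74 and 50.1 ± 6.07. That lead was within the SDs in K556R and larger than both SDs in WT. The genes also differed in how far they ranged over all libraries. Cyp51 was 11.8-fold higher in its highest library than in its lowest, Nsdhl 10.7-fold and Msmo1 7.75-fold. Lss (4.80-fold), Dhcr7 (4.42-fold), Sc5d (3.85-fold), Tm7sf2 (3.48-fold) and Hsd17b7 (3.21-fold) ranged less, and Ebp only 1.91-fold.

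**Figure D1:**
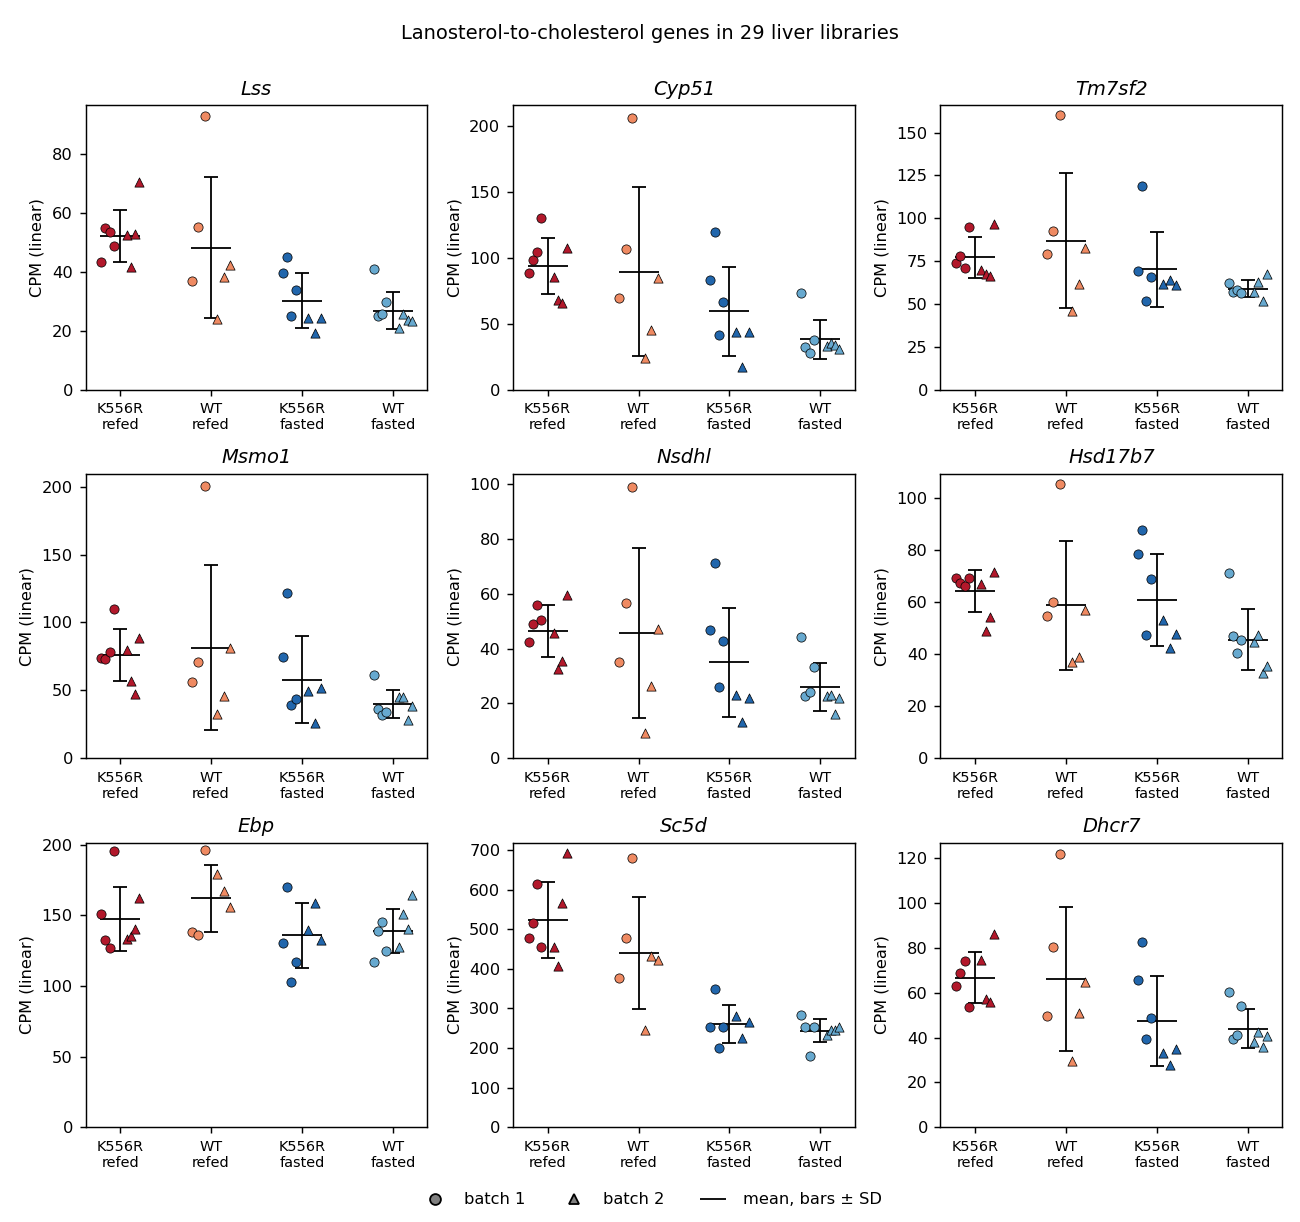
CPM on a linear axis for each of the 9 genes in 29 liver libraries, by group, with circles for batch 1, triangles for batch 2, and the mean ± SD. One refed WT library of batch 1 is the highest point for every gene but Sc5d, and Ebp stays between 103 and 197 CPM in every group.

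What does refeeding do to the arm? Refed livers held more transcript of several of these genes in both genotypes. In K556R livers 3 of the 9 rose (Lss, Sc5d and Dhcr7), against 6.97% of all tested genes called higher, and in WT livers 5 of the 9 rose (Lss, Cyp51, Tm7sf2, Msmo1 and Sc5d), against 5.25%. No member fell in either genotype, where 8.39% and 5.43% of all genes were called lower. The median log2 fold change of the 9 was 0.58 in K556R and 0.74 in WT, against 0.01 and 0.00 over all tested genes, and all 9 estimates were above 0 in both. Calls are at a Benjamini-Hochberg adjusted p below 0.05 over all 15603 genes in edgeR's quasi-likelihood test.

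Sc5d had the lowest adjusted p of the 9 in both genotypes. It had 407 to 693 CPM (median 498) in refed K556R livers, against 200.2 to 349.7 (median 254) in fasted K556R livers. All 8 refed K556R livers were above all 7 fasted ones, a separation that 1.4% of tested genes had in this direction. Sc5d rose by log2 1.01 (SE 0.15, 2.02-fold, adjusted p = 1.46e-05, edgeR). In WT livers Sc5d had 247 to 680.2 CPM refed (median 428) and 180.1 to 284 fasted (median 249.5). The lowest refed WT liver, replicate 1 of batch 2, lay within the fasted range and the other 5 lay above it. Sc5d rose there by 0.84 (SE 0.15, 1.79-fold, adjusted p = 0.00034, edgeR).

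Lss, which closes the sterol ring, rose alongside. It had 41.5 to 70.4 CPM (median 52.6) in refed K556R livers, against 19.4 to 45.1 (median 25.1) in fasted K556R livers. The ranges overlapped through batch 1, where fasted K556R livers reached 45.1. In WT livers Lss had 23.98 to 92.8 CPM refed (median 40.3) and 20.8 to 40.9 fasted (median 25.3), again with overlap. The rise was log2 0.87 (SE 0.18, adjusted p = 0.00123) in K556R and 0.82 (SE 0.19, adjusted p = 0.00363) in WT (edgeR). Lss and Sc5d kept their calls in both genotypes in all 29 fits that left out 1 library.

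Cyp51, the cytochrome P450 of the arm, passed in WT livers, and its K556R estimate narrowly missed the threshold. It had 65.7 to 129.8 CPM (median 93.4) in refed K556R livers, against 17.4 to 119.8 (median 43.5) in fasted K556R livers. In WT livers it had 23.98 to 206 CPM refed (median 77.0) and 27.6 to 73.2 fasted (median 33.5). The ranges overlapped in both genotypes, and in WT the lowest refed liver was below every fasted one. Cyp51 rose by log2 1.12 in WT (SE 0.29, adjusted p = 0.00996), and in K556R its estimate of 0.80 (SE 0.28, adjusted p = 0.0532, edgeR) did not pass. The WT call was lost without replicate 3 of refed WT batch 1 (0.82, adjusted p = 0.0625).

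The other calls were less firm. Msmo1 had 47.2 to 109.5 CPM (median 75.9) in refed K556R livers, against 25.8 to 122 (median 49.6) in fasted ones, and 32.8 to 200.1 (median 63.7) in refed WT livers, against 28.1 to 61.3 (median 37.4) in fasted ones. It rose by log2 0.95 in WT (SE 0.28, adjusted p = 0.0285, edgeR) and stood at 0.46 (SE 0.27, adjusted p = 0.297) in K556R, with overlapping ranges in both. The WT value fell to 0.54 (adjusted p = 0.208) without replicate 3 of refed WT batch 1, and the call was also lost without replicate 2, 3 or 4 of fasted WT batch 1 or replicate 3 of refed WT batch 2. Tm7sf2 had 66.5 to 96.9 CPM (median 72.4) in refed K556R livers, against 51.7 to 118.5 (median 63.9) in fasted ones, and 46.0 to 160.1 (median 80.7) in refed WT livers, against 51.5 to 67.3 (median 57.4) in fasted ones. It rose by 0.53 in WT (SE 0.17, adjusted p = 0.0461, edgeR) and stood at 0.16 (SE 0.17, adjusted p = 0.577) in K556R. That WT call was lost in 15 of the 29 fits that left out 1 library, and fell to 0.30 (adjusted p = 0.263) without replicate 3 of refed WT batch 1. Tm7sf2 shares 532 exon bases, 12.1% of its own, with Vps51 on the same strand, so its count may depend on how reads there were assigned.

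Dhcr7 had 53.5 to 86.3 CPM (median 65.9) in refed K556R livers, against 27.6 to 82.5 (median 39.3) in fasted K556R livers, and 29.5 to 122 (median 57.7) in refed WT livers, against 35.8 to 60.4 (median 40.9) in fasted WT livers. It rose by log2 0.59 in K556R (SE 0.20, adjusted p = 0.0415) and stood at 0.56 in WT (SE 0.20, adjusted p = 0.0764, edgeR). The K556R call was lost in 9 of 29 fits that left out 1 library (largest adjusted p = 0.101). Nsdhl had 32.5 to 59.7 CPM in refed K556R livers, against 13.1 to 71.1 in fasted ones, and 9.25 to 99.1 in refed WT livers, against 16.2 to 44.3 in fasted ones. It stood at 0.58 in K556R (SE 0.27, adjusted p = 0.163) and 0.74 in WT (SE 0.28, adjusted p = 0.0907). The refed and fasted ranges of both genes overlapped in both genotypes.

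Hsd17b7 and Ebp moved least. Hsd17b7 had 48.9 to 71.4 CPM in refed K556R livers, against 42.3 to 87.6 in fasted ones, and 37.0 to 105.6 in refed WT livers, against 32.9 to 71.2 in fasted ones. Its estimates were log2 0.14 (adjusted p = 0.616) in K556R and 0.34 (adjusted p = 0.180) in WT. Ebp had 127 to 196 CPM in refed K556R livers, against 103 to 170.2 in fasted ones, and 136 to 197 in refed WT livers, against 117 to 165 in fasted ones. Its estimates were 0.11 (SE 0.10, 95% interval -0.09 to 0.32) and 0.23 (SE 0.11, 0.02 to 0.44). Neither gene passed in either genotype.

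**Figure D2:**
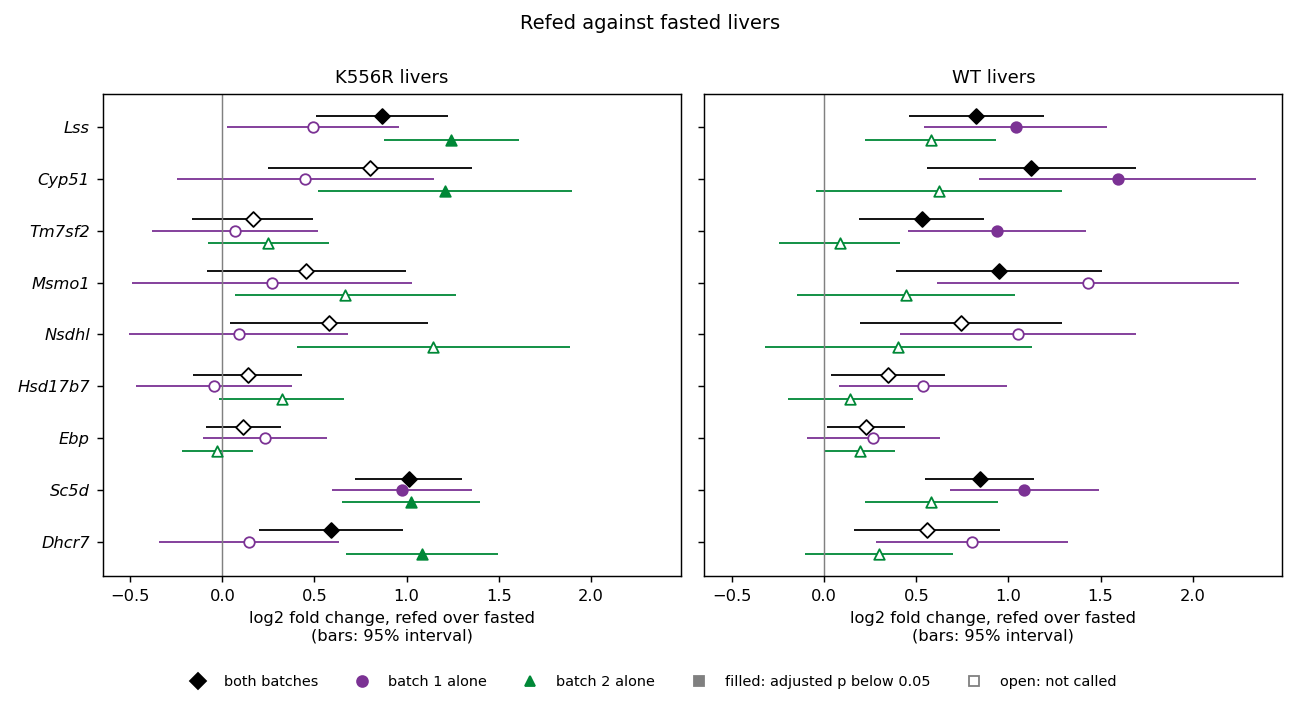
Log2 fold change of refed over fasted livers with its 95% interval, for each gene, in K556R livers (left) and WT livers (right), from both batches together (diamonds), batch 1 alone (circles) and batch 2 alone (triangles), filled where the adjusted p is below 0.05. Batch 2 values lie to the right of batch 1 values for 8 of 9 genes in K556R livers, and to the left for all 9 in WT livers.

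The refeeding response was not spread evenly over the batches. In K556R livers the median over the 9 genes was log2 0.23 in batch 1 with 1 gene called (Sc5d, against 4.91% of genes called higher), and 1.02 in batch 2 with 4 called (Lss, Cyp51, Sc5d and Dhcr7, against 4.39%). In WT livers it ran the other way, at 1.04 in batch 1 with 4 called (Lss, Cyp51, Tm7sf2 and Sc5d, against 2.68%) and 0.40 in batch 2 with 0 called by edgeR (against 1.6%), where 2 passed at an unadjusted p below 0.05. Sc5d was the steadiest in K556R livers, at 0.98 in batch 1 and 1.02 in batch 2. Dhcr7 stood at 0.15 in batch 1 and 1.08 in batch 2, and Nsdhl at 0.09 and 1.14.

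Values in each liver are given for Dhcr7, with the overlap of refed and fasted livers for all 9. In batch 2, Dhcr7 had 74.8, 57.2, 55.9 and 86.3 CPM in refed K556R livers, against 33.3, 27.6 and 34.8 in fasted K556R livers. Those groups did not overlap, nor did they for Lss, Cyp51, Tm7sf2, Nsdhl and Sc5d, so that 6 of the 9 were higher in every refed than in every fasted K556R liver of batch 2, against 13.6% of all tested genes. In batch 1, Dhcr7 had 63.1, 68.7, 74.4 and 53.5 CPM refed and 65.8, 82.5, 39.3 and 48.6 fasted, with full overlap, and Sc5d alone separated (against 7.99%). In WT livers Tm7sf2 and Sc5d separated in batch 1 (2 of 9, against 7.77%), and none of the 9 did in batch 2 (against 7.09%) or over both batches (against 0.968%).

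The difference between the batches was itself tested. For refeeding in K556R livers the batch 1 minus batch 2 difference had a median of log2 -0.43, with 0 members called by edgeR against 3.54% of all genes, 3 at an unadjusted p below 0.05 (Lss, Nsdhl and Dhcr7) and 0 called by DESeq2. Its smallest adjusted p was 0.122, for Dhcr7 at -0.96. For refeeding in WT livers the median was 0.49, with 0 members called by edgeR against 0% of genes, 1 at an unadjusted p below 0.05 (Tm7sf2) and 0 by DESeq2. A difference between the batches was therefore not shown for any of the 9.

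**Figure D3:**
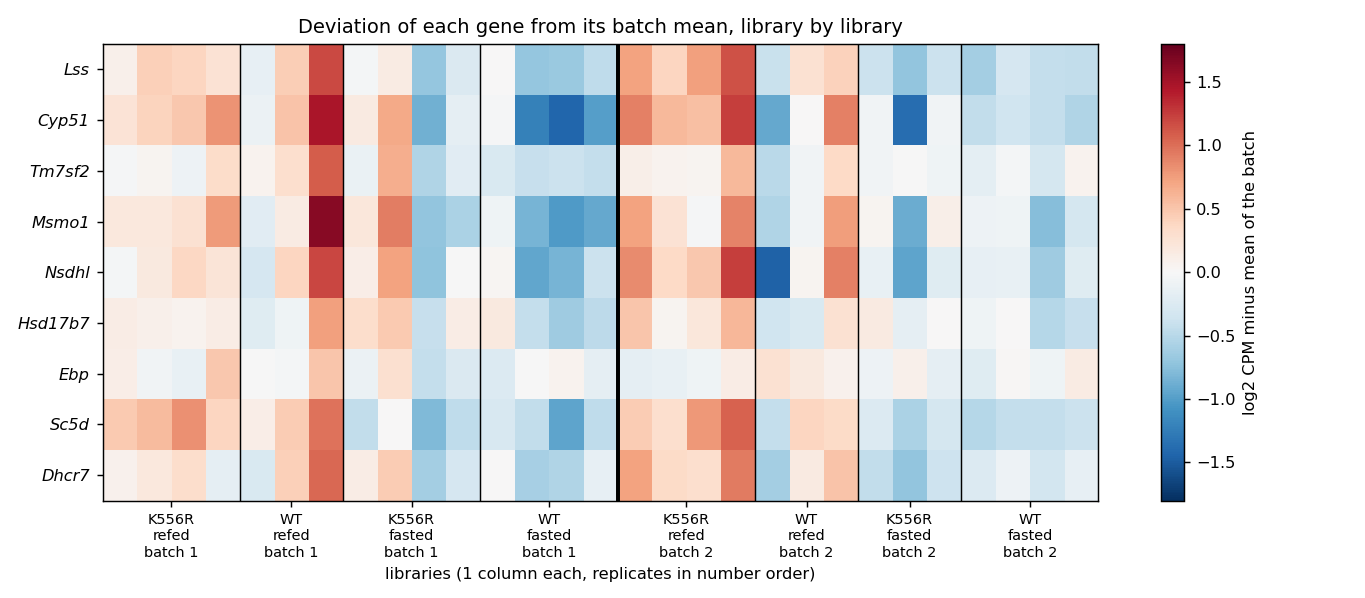
Log2 CPM of each gene (rows) minus its mean in the same batch, for 29 libraries (columns) ordered by batch, feeding and genotype, from blue (lower) to red (higher). Whole columns share a colour: replicate 3 of refed WT batch 1 is red in all 9 rows, and replicate 1 of refed WT batch 2 is blue in 8 of 9, with Ebp the exception.

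Single livers moved most of the arm at once, and the refed WT group was the most spread. The mean log2 CPM of the 9 genes was 6.44, 6.53, 6.58 and 6.66 in refed K556R livers of batch 1 and 6.47, 6.18, 6.27 and 6.80 in those of batch 2. In refed WT livers it was 6.18, 6.59 and 7.39 in batch 1 and 5.39, 6.01 and 6.44 in batch 2. The group's SD was 0.20 in refed K556R and 0.66 in refed WT livers, where replicate 3 of batch 1 was the highest of all 29 libraries and replicate 1 of batch 2 the second lowest. In fasted livers the SD was 0.47 in K556R, where batch 1 had 6.32, 6.78, 5.66 and 6.07 and batch 2 had 5.80, 5.35 and 5.77, and 0.22 in WT.

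Those 2 refed WT livers also stood at the ends of their group in depth and in hepatocyte message. Replicate 3 of batch 1 had 27278251 counts and replicate 1 of batch 2 had 14385218, the most and the fewest of all libraries. The summed level of the 6 hepatocyte markers was 66607 to 85260 CPM in refed K556R livers, 59103 to 103570 in refed WT livers, 55569 to 102076 in fasted K556R livers and 62743 to 80129 in fasted WT livers. The highest of these sums belonged to that same replicate 3 and the lowest in refed WT to that same replicate 1, while 102076 belonged to replicate 2 of fasted K556R batch 1, where the mean log2 CPM of the arm was 6.78. Of the 6 markers, Hnf4a fell with refeeding in K556R livers and no other was called, and of the markers of other cells only Lrat, a stellate cell gene, was called (higher, in K556R). Not every liver followed this order. Replicate 3 of fasted K556R batch 1 had 27159288 counts, with the arm at a mean log2 CPM of 5.66. Replicate 1 of refed K556R batch 2 had 15657450 counts and a marker sum of 67258.5 CPM, with the arm at 6.47. Replicate 2 of fasted WT batch 2 had a marker sum of 79841 CPM, with the arm at 5.78. The part of depth or of hepatocyte message in the levels of the arm was not tested. In bulk liver, fewer cells of a type and less RNA per cell cannot be told apart.

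Does the K556R allele change the arm? None of the 9 genes was called between the genotypes in either feeding state. In fasted livers 0 of the 9 passed in edgeR, against 0.103% of all tested genes, with 1 at an unadjusted p below 0.05 and 0 called by DESeq2. The median was log2 0.22 and 8 of 9 estimates were above 0, against a median of 0.00 over all genes. In refed livers 0 of 9 passed against 0% of all genes, with 0 at an unadjusted p below 0.05 and 0 called by DESeq2, a median of 0.14 and 6 of 9 above 0. As the mean of both states 0 of 9 passed against 1.24%, with 1 at an unadjusted p below 0.05 and 0 by DESeq2, and a median of 0.18.

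The estimates allow moderate differences. Among fasted livers Hsd17b7 came nearest to a call: K556R livers had 78.5, 87.6, 47.5 and 69.1 CPM in batch 1 and 53.0, 42.3 and 47.6 in batch 2, against 71.2, 46.9, 40.6 and 45.6 and 44.8, 47.3, 32.9 and 35.4 in WT livers. The ranges overlapped in each batch. The difference was log2 0.37 (SE 0.15, adjusted p = 0.434, edgeR). Cyp51 stood at 0.50 (95% interval -0.05 to 1.05), Msmo1 at 0.45 (-0.09 to 0.99) and Nsdhl at 0.30 (-0.23 to 0.84), and Ebp at -0.03 (-0.23 to 0.18). In refed livers Sc5d was the largest at 0.26 (-0.04 to 0.56), followed by Cyp51 at 0.17 (-0.40 to 0.74) and Lss at 0.17 (-0.20 to 0.54), with Tm7sf2 at -0.14 (-0.48 to 0.20) and Ebp at -0.14 (-0.35 to 0.07).

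**Figure D4:**
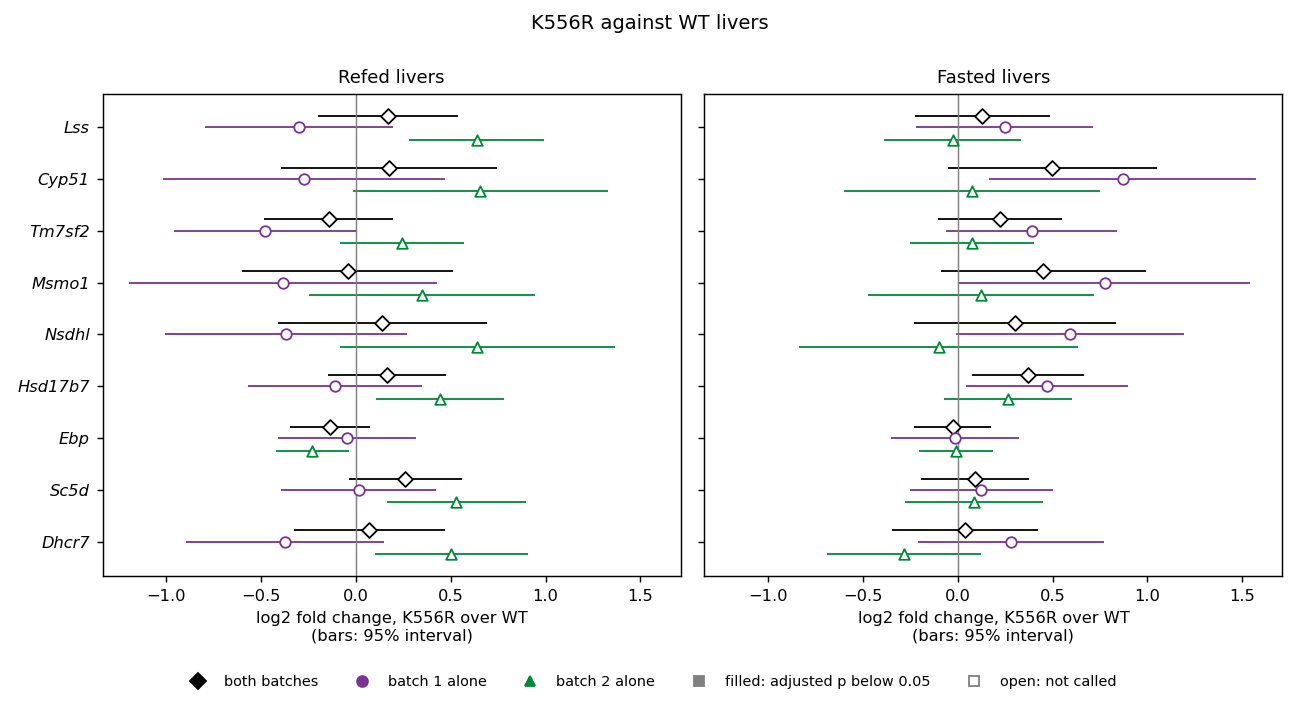
Log2 fold change of K556R over WT livers with its 95% interval, for each gene, in refed livers and in fasted livers, from both batches together, batch 1 alone and batch 2 alone, all open because no adjusted p is below 0.05. In refed livers 8 of 9 batch 1 values lie below 0 and 8 of 9 batch 2 values above 0.

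No member was called in a batch alone, where 0.216% (batch 1) and 0% (batch 2) of all genes were called in fasted livers and 0.0328% and 0.0456% in refed livers (edgeR). At an unadjusted p below 0.05 there were 2 of the 9 in batch 1 and 0 in batch 2 among fasted livers. Among refed livers there were 0 in batch 1 and 5 in batch 2. Batch by batch the refed estimates took opposite signs. In batch 1, 8 of the 9 were lower in K556R (median log2 -0.30), and in batch 2, 8 of the 9 were higher (median 0.50), so the pooled median of 0.14 describes neither. Lss had 43.5, 54.9, 53.4 and 48.7 CPM in refed K556R livers of batch 1, against 36.8, 55.3 and 92.8 in WT, and 52.5, 41.5, 52.7 and 70.4 in K556R livers of batch 2, against 23.98, 38.4 and 42.2 in WT. Its K556R values were alike in both batches, and its WT values were high in one liver of batch 1 and low in one of batch 2. The batch 1 minus batch 2 difference had a median of -0.74 and 0 members called by edgeR against 0% of genes, with 3 at an unadjusted p below 0.05 (Lss, Tm7sf2 and Dhcr7), 0 called by DESeq2 and a smallest adjusted p of 0.280 for Lss. Without replicate 3 of refed WT batch 1 and replicate 1 of refed WT batch 2, a choice made after seeing the data, the median of that difference was -0.09. The batch difference of refeeding in WT moved likewise, to -0.08 from the 0.49 of all libraries. The livers left out were the highest and the lowest refed WT livers by the mean of the 9 genes. The direction of both moves was therefore set by the choice, and the source of the batch difference was not tested.

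In fasted livers the batch 1 minus batch 2 difference had a median of log2 0.32, with 0 members called by edgeR against 0% of genes, 0 at an unadjusted p below 0.05 and 0 by DESeq2. The median genotype effect was log2 0.39 in batch 1, with 8 of 9 above 0, and 0.07 in batch 2, with 5 of 9 above 0. Dhcr7 in batch 2 did not overlap between the genotypes, at 33.3, 27.6 and 34.8 CPM in K556R livers against 38.1, 42.6, 35.8 and 40.7 in WT livers, all lower in K556R (1 of 9 genes, against 4.39% of all). Its estimate there was -0.28 (adjusted p = 0.827, edgeR), and 0.28 in batch 1.

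Whether refeeding acts differently in the 2 genotypes was tested as the difference of the genotype effects, refed minus fasted. The median was log2 -0.16, with 0 members called by edgeR against 0% of all genes, 0 at an unadjusted p below 0.05 and 0 by DESeq2. The largest was Msmo1 at -0.49 (95% interval -1.27 to 0.29), an interval that holds both 0 and a change of more than 2-fold. The median was -0.66 in batch 1 and 0.44 in batch 2, with 0 called by edgeR in each and 3 and 2 at an unadjusted p below 0.05. The refeeding and genotype comparisons share libraries, and their values are therefore not independent of each other.

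How closely do the 9 genes move together from liver to liver? With the mean of each group in each batch removed, 28 pairs among Lss, Cyp51, Tm7sf2, Msmo1, Nsdhl, Hsd17b7, Sc5d and Dhcr7 had Pearson's r of 0.68 to 0.93 (median 0.83) and Spearman's rho of 0.57 to 0.91 over the 29 libraries. All 28 passed at an adjusted p below 0.05 (permutation test within groups and batches, 100000 resamples, Benjamini-Hochberg over 36 pairs), the largest adjusted p for r being 0.00339. The share of pairs among all tested genes that would pass was not measured, so these values do not show a trait particular to the arm. Nsdhl and Dhcr7, and Nsdhl and Cyp51, stood at 0.93. Without the 2 libraries farthest from the median of the first gene, r over these pairs was 0.57 to 0.93, and within batches it was 0.72 to 0.97 in batch 1 and 0.50 to 0.96 in batch 2.

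Ebp was the exception, singled out after its values were seen. Its 8 pairs had r of 0.19 to 0.69 (median 0.28) and rho of 0.09 to 0.57, and 1 of them passed, with Tm7sf2. In batch 1 its r was 0.33 to 0.85 and in batch 2 -0.40 to 0.23. In replicate 1 of refed WT batch 2, where Cyp51 had 23.98 CPM and Nsdhl 9.25, Ebp had 179 CPM, above the 168 and 156 of the other livers of its group and batch. All pairs come from the same libraries and share their depth and scaling.

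**Figure D5:**
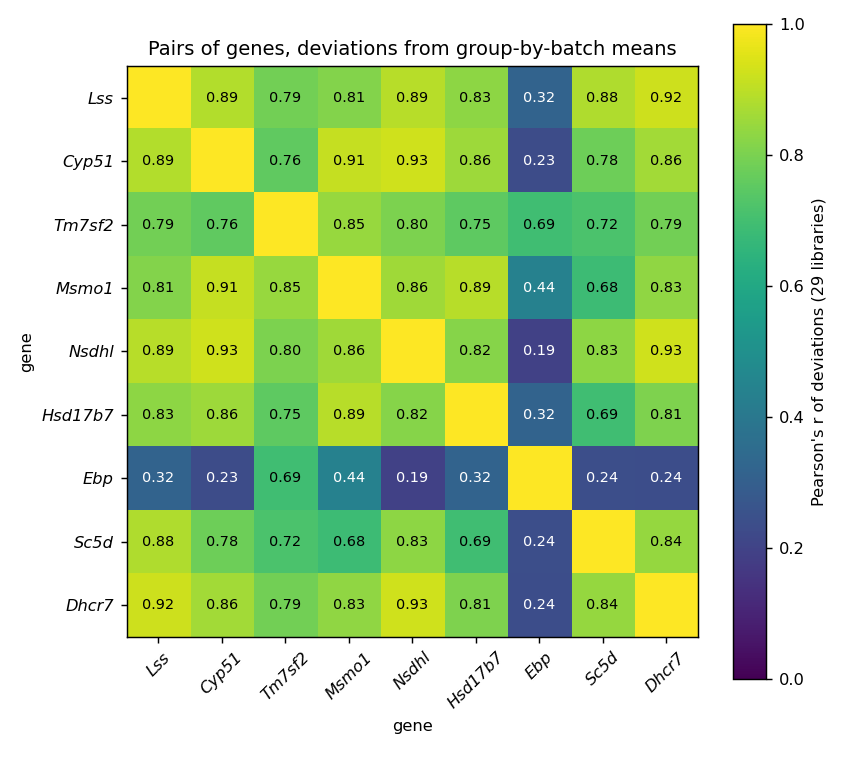
Pearson's r for each pair of the 9 genes, over 29 libraries, of log2 CPM after removal of the group mean in each batch, from dark (0) to yellow (1). The row and column of Ebp run from 0.19 to 0.69, below nearly all other pairs, which run from 0.68 to 0.93.

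With the effects of group and batch removed, the tested genes most like the mean of the 9 included Rdh11 (r = 0.95), Fdft1 (0.93), Idi1 (0.93), Pmvk (0.91), Erg28 (0.86), Tmem97 (0.86), Sqle (0.86), Hmgcs1 (0.85) and Acss2 (0.84), over 29 libraries. Of the 10 most alike, 6 stand in the list of 10 genes for the steps before the arm. With the mean of each group in each batch removed instead, as for the pairs above, 8 of the 10 stayed, and Hmgcs1 and Acss2 were not among them.

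The neighbouring steps and partners were measured with the same tests. Of the 10 genes from acetyl-CoA to squalene epoxide, 5 rose with refeeding in K556R (median log2 0.75, against 6.97% of all tested genes called higher) and 7 in WT (median 0.98, against 5.25%), and 0 passed by genotype in either feeding state. Sqle, which makes the substrate of Lss, rose in WT (1.53, adjusted p = 0.0147) and stood at 1.16 in K556R (adjusted p = 0.0532, edgeR). Of the other genes of the sterol end listed, 0 of 3 were called in either genotype, with Lbr, a sterol reductase of the nuclear envelope, at 0.26 in K556R and 0.40 in WT.

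Of the electron donor genes listed, only Por and Cyb5b were called with refeeding, and these went in opposite directions. For these and the next lists, the shares over all tested genes stay 6.97% higher and 8.39% lower in K556R, and 5.25% higher and 5.43% lower in WT. Of 4 genes, Por, the reductase that feeds Cyp51 and other P450 enzymes, was lower in refed livers, at 316 ± 98.5 CPM in refed K556R against 599 ± 126 in fasted K556R livers, and 384 ± 80.2 in refed WT against 712 ± 207 in fasted WT livers. It fell by log2 0.99 (adjusted p = 0.000233) and 0.91 (adjusted p = 0.0016, edgeR). Cyb5b, a cytochrome b5 that carries electrons, rose by 0.40 (adjusted p = 0.00139) and 0.37 (adjusted p = 0.00505, edgeR). Cyb5a and Cyb5r3 were not called.

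Among 7 genes of sterol sensing, Srebf1 and Insig1 rose in both genotypes, and Mbtps1, a protease that cuts SREBP, fell in K556R (-0.17). Srebf1, the SREBP gene best known for fat synthesis, rose by log2 2.07 in K556R and 1.46 in WT, while Srebf2 stood at -0.10 and -0.02, not called. Insig1, an anchor of the SREBP complex in the endoplasmic reticulum, rose by 1.43 and 1.28. Of 6 other sterol-responsive genes tested, 3 rose in both genotypes, among them the sterol carrier gene Stard4 (0.77 in K556R and 0.86 in WT). Of 6 targets of the sterol receptor LXR, the sterol exporter gene Abcg8 fell in both (-0.55 and -0.48), and Nr1h3, which encodes LXR alpha, rose in WT (0.19). None of these genes was called between the genotypes by edgeR in either state.

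The genes lie on 8 chromosomes in mm10 (GENCODE M21). Lss (ENSMUSG00000033105) lies at chr10:76531588-76557138, Cyp51 (ENSMUSG00000001467) at chr5:4081145-4104746, Tm7sf2 (ENSMUSG00000024799) at chr19:6062821-6068373 and Msmo1 (ENSMUSG00000031604) at chr8:64718139-64733792. Nsdhl (ENSMUSG00000031349) lies at chrX:72918557-72958514, Hsd17b7 (ENSMUSG00000026675) at chr1:169949535-169969241, Ebp (ENSMUSG00000031168) at chrX:8185329-8193512, Sc5d (ENSMUSG00000032018) at chr9:42251595-42264256 and Dhcr7 (ENSMUSG00000058454) at chr7:143823145-143848410. Lss shares 381 exon bases (3.53%) with the antisense gene 4930483K19Rik and Cyp51 166 (3.76%) with Akap9 on the other strand, and without the strand setting of the counting their reads cannot be told apart.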

How the data were processed

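Raw counts per gene, whole numbers without normalization, were deposited for 29 liver libraries. By the submitters' processing notes the tools were STAR, TopHat, STAR-Fusion and HTSeq with DESeq2 and edgeR, on build mm10. Annotation release and strand setting are not given in the sources used here, and the labels' protocol allows for directional and non-directional libraries. Of 54532 identifiers, 54495 matched GENCODE M21 and 37, with 0.000917% of the counts, did not.

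Genes were kept by filterByExpr of edgeR 4.0.16 (at least 10 counts, total at least 15). The 15603 genes left held 99.92% of counts. TMM-scaled libraries were fitted by quasi-likelihood to the 4 groups plus batch, with a common biological coefficient of variation of 0.191. Differences between batches came from 8 group-by-batch means. P-values are Benjamini-Hochberg adjusted over all tested genes. Standard errors follow from the F statistic, and 95% intervals are 1.96 standard errors either way. A prior count of 2 was added for log2 CPM. The procedure was tested on counts simulated from its own fitted means and dispersions. These held no outlying livers and no group effects that differ between batches, so how it handles those was not tested. DESeq2 1.42.0, other filters and scalings, single batches, 2 groups at a time and leaving out each library were alternatives.

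The 9 genes and all lists were chosen with earlier results of these data known. The genes named are the 9, Prox1, the lists of up to 12 genes and the 10 genes most like the 9. A few genes of these lists are not reported here. Within groups, 92 library pairs differed by a chi-square of 11.0 to 168 per degree of freedom, so none was a copy. Totals of 14385218 to 27278251 counts set the precision, and no library was left out. R 4.3.3 and Python 3.11.15 (matplotlib 3.10.9, scipy 1.17.1) were used.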

Additional observations from a re-analysis of the deposited data

Results flagged for a closer look

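In 36 sets of 6 to 8 livers (9 genes in 4 groups), 4 had 1 liver far from the others by Dixon's test on log2 CPM, which chance alone would give in about 1 group in 20. Cyp51 had 73.2 CPM in replicate 1 of fasted WT batch 1, where the other fasted WT livers had 27.6 to 37.4. Hsd17b7 had 71.2 CPM in the same liver, against 32.9 to 47.3 in the others. Tm7sf2 had 118.5 CPM in replicate 2 of fasted K556R batch 1, against 51.7 to 69.2 in the others of that group. Sc5d had 180.1 CPM in replicate 3 of fasted WT batch 1, the lowest of its group, against 233 to 284 in the others. These livers entered all fits.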

How the results depend on the processing

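None of the 9 genes was called in the genotype, interaction or batch-difference comparisons under any alternative run, including the 29 fits without 1 library (0 to 0 called). Refeeding in K556R gave 3 calls, 1 in batch 1 alone and 2 to 4 in the fits without 1 library. Dhcr7 lost its call without replicate 3 or 4 of fasted K556R batch 1, any fasted K556R of batch 2, replicate 3 of refed K556R batch 1 or replicate 1, 2 or 4 of batch 2. Refeeding in WT gave 5 calls, 0 in batch 2 alone, 3 with only the 2 groups in the fit, 3 without the highest and the lowest refed WT library (chosen after seeing the data) and 2 to 7 without 1 library. It gave 2 without replicate 3 of refed WT batch 1, 3 without replicate 2, 3 or 4 of fasted WT batch 1 or replicate 3 of refed WT batch 2, and 7 without replicate 1 of refed WT batch 2. Tm7sf2 lost its WT call without any fasted WT library but replicate 4 of batch 2, replicate 2 or 3 of refed WT batch 1, replicate 3 of refed WT batch 2, replicate 4 of fasted K556R batch 1, replicate 1 or 3 of fasted K556R batch 2, or replicate 2 or 3 of refed K556R batch 1. With a replicate block, WT refeeding gave 3 calls (Lss, Cyp51 and Sc5d) and K556R refeeding 2 (Lss and Sc5d). The deviations of same-numbered libraries had r of -0.39 to 0.36 (40 pairs, median -0.029), and the numbers were not taken to pair them. DESeq2 gave 4 calls in K556R and 6 in WT, where it called 1248 and 927 of all 15603 genes higher.

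Signs turned in single batches. For fasted K556R against WT in batch 2 alone, Lss stood at log2 -0.028, Nsdhl at -0.10 and Dhcr7 at -0.28. For refed livers in batch 1 alone, Lss stood at -0.30, Cyp51 at -0.27, Nsdhl at -0.37, Hsd17b7 at -0.11 and Dhcr7 at -0.38, and in batch 2 alone Tm7sf2 at 0.24 and Msmo1 at 0.35 (0.25 without the highest and lowest refed WT libraries). For K556R refeeding, Hsd17b7 stood at -0.044 in batch 1 and Ebp at -0.027 in batch 2. Without 1 library, signs turned when fasted for Ebp (-0.094 to 0.030; 0.0024 and 0.010 without replicate 4 of K556R batch 1 or of WT batch 2) and Dhcr7 (-0.10 to 0.12; -0.019, -0.0091 and -0.0037 without replicate 1 of K556R batch 1 or replicate 2 or 3 of WT batch 1). When refed they turned for Cyp51 (-0.0076 to 0.48), Tm7sf2 (-0.26 to 0.095), Msmo1 (-0.19 to 0.37; 0.0013, 0.0093 and 0.035 without replicate 2 of K556R batch 1, 3 of K556R batch 2 or 3 of WT batch 2), Nsdhl (-0.063 to 0.40) and Dhcr7 (-0.065 to 0.28; -0.020 without replicate 1 of WT batch 1). The cause was not tested. Over all genes, the fasted genotype comparison called 16, against 33 in batch 1, 0 in batch 2, 45 with no filter, 2 with no batch term, 2 with the replicate block, 26 with 2 groups, 89 by DESeq2 and 2 to 46 without 1 library. The refed one called 0, against 44 by DESeq2. Low counts were no limit, as the lowest was 128.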
